A study of Mus musculus with 4 samples.

Results

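The CIDE and perilipin families are the proteins that coat the lipid droplet. The 8 mouse genes Cidea, Cideb, Cidec, Plin1, Plin2, Plin3, Plin4 and Plin5 were looked up among the probe sets annotated to exactly 1 gene symbol. Of these 8 genes, 6 were found, with 7 probe sets, out of 17097 genes and 45037 probe sets. Plin5 had 2 probe sets and each other gene had 1. The annotation used here names no probe set for Cidec or Plin1, so they were not analysed here. The Entrez Gene identifiers of the measured genes are 12683 (Cidea), 12684 (Cideb), 11520 (Plin2), 66905 (Plin3), 57435 (Plin4) and 66968 (Plin5). Where a gene had several probe sets, it was represented by the one with the highest mean over all arrays.

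RNA came from mouse brown adipocytes that expressed an shRNA directed at the long noncoding RNA Blnc1 (named for brown fat) or a scrambled shRNA. Cells of both groups were differentiated for 6 days, and both groups carry an shRNA construct, so no group of untransduced cells enters the comparison. There were 2 Blnc1 knockdown arrays and 2 scramble arrays, labelled as biological replicates, which limits the precision of every value. No probe set used here is named Blnc1, so the depth of the knockdown was not analysed here. The question addressed here is how the droplet coat genes read when Blnc1 is targeted.

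Fat cells store triglyceride in droplets bounded by a single layer of phospholipid, and the coat proteins on that layer set how droplets grow and when lipases reach the lipid. CIDE proteins gather at the contact between droplets and pass lipid from the smaller to the larger. Cidea is abundant in brown fat, Cidec (also called Fsp27) is a main CIDE protein of white fat, and Cideb is best known from liver, where it acts in the lipidation of lipoproteins. Perilipins share an amino-terminal region and bind the droplet surface. Plin1 restrains lipolysis in fat cells until it is phosphorylated, Plin2 coats droplets in nearly all cells, Plin3 moves between cytosol and new droplets, Plin4 coats small droplets of fat cells, and Plin5 is found in oxidative tissues, where it links droplets to mitochondria.

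The sequences upstream of the start sites of the 4 measured perilipin genes are shown so that the genes that were lower in knockdown (Plin4 and Plin5) can be set beside those that were not called (Plin2 and Plin3). They are 250 bases long, read 5′ to 3′ towards the start site, and come from RefSeq in build GRCm38.p6. All 4 genes lie on the minus strand. The interval is chr4:86670060-86670309 for Plin2, chr17:56290512-56290761 for Plin3, chr17:56109783-56110032 for Plin4 and chr17:56117549-56117798 for Plin5, which has a further start site downstream. Capitals mark AGGTCA on either strand, the core motif that PPAR and other nuclear receptors bind.
Plin2: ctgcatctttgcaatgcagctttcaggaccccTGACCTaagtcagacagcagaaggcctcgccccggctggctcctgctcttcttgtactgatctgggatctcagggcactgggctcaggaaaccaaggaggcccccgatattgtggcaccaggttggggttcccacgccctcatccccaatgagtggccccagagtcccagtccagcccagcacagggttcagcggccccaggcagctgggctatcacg
Plin3: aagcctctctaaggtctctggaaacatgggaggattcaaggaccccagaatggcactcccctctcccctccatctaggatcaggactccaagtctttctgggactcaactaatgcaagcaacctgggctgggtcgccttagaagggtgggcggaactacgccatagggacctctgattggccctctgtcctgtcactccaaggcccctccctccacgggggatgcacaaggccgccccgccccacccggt
Plin4: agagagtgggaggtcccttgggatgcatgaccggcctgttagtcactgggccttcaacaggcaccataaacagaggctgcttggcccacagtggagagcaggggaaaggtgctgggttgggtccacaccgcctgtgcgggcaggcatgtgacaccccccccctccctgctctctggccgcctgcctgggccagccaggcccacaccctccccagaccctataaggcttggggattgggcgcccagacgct
Plin5: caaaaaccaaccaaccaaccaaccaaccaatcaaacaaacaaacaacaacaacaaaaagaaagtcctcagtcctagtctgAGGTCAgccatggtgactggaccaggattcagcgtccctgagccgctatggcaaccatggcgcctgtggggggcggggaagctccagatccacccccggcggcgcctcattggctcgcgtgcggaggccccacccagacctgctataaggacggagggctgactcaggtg
Over 32851 upstream windows of the same length, 14.0% held AGGTCA on either strand. The promoter table held 9 windows for 7 of the 8 genes, all but Cidea, and 2 of these windows, of Plin2 and Plin5, held the motif. The match lay 218 bases before the start in Plin2 and 170 bases before it in Plin5. The window of the further Plin5 start site, chr17:56117299-56117548, held no match and is not shown. The direct repeat DR1, which is 2 copies of the core motif in the same direction with any 1 base between them and was searched on both strands, was in 0 of the 9 windows and in 0.0335% of all windows. CACGTG was in 0 of the 9 (6.02% of all windows), and TATAAA, searched on both strands, was in 1 of the 9, that of Cideb (12.4% of all windows).

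Fat cell transcripts were present on the arrays of both groups, with 0 of the 8 measured adipocyte markers at background. The adipocyte hormone gene Adipoq read 11.85 and 11.78 on average (log2, knockdown and scramble), and the brown fat uncoupling protein gene Ucp1 read 5.75 and 7.62. Of the markers listed for other cell types, 7 of 9 measured hepatocyte genes were lower on the knockdown arrays, and 6 of 9 measured preadipocyte and fibroblast genes were higher. In the other lists, 2 of 8 adipocyte genes were higher, and 2 of 9 brown adipocyte genes were higher and 4 lower. Further, 1 of 8 macrophage and 1 of 6 endothelial genes were higher, and 1 of 8 skeletal muscle genes was lower. By the limma test used below, 11.4% of all genes were higher and 7.18% lower. Shares of 77.8% (hepatocyte, lower), 66.7% (preadipocyte and fibroblast, higher) and 44.4% (brown adipocyte, lower) were well above these. The shares of 25% (adipocyte, higher) and 22.2% (brown adipocyte, higher), each from 2 genes, were also above 11.4%. The brown adipocyte list thus went both ways. A single call in a list of 6 or 8 genes cannot be told from the shares of all genes. The mean log2 value of the hepatocyte list was 3.23 and 2.76 on the knockdown arrays, against 4.51 and 4.39 on the scramble arrays. The mean of the preadipocyte list was 5.53 and 5.55, against 4.85 and 4.94. The 3' control probe set of Actb minus its 5' one, a log2 ratio that is larger where RNA is broken, was 1.77 and 1.88 on the knockdown arrays and 0.99 and 1.15 on the scramble arrays. The same log2 ratio of Gapdh was 0.34 and 0.40 on the knockdown arrays and 0.09 and 0.04 on the scramble arrays. The 18S ribosomal RNA control probe set read 6.64 and 7.01 on the knockdown arrays, against 5.13 and 4.43 on the scramble arrays. The part of these differences in markers and RNA controls in the results below was not tested. In such bulk RNA, fewer cells of a type and less RNA per cell cannot be told apart.

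Most of the measured droplet coat genes were lower on the knockdown arrays. Of the 6 measured genes, Cidea, Cideb, Plin4 and Plin5 were lower in knockdown at an adjusted p of 0.05 (limma, Benjamini-Hochberg over all 17097 genes), 0 were higher, and Plin2 and Plin3 did not pass. At an unadjusted p of 0.05, 1 of the 6 genes, Plin2, was higher, and 17.4% of all genes were. Over all genes, 18.5% were called, 7.18% lower and 11.4% higher. Over all genes, 1941 were higher and 1228 lower with the values as deposited, 1514 and 1564 after quantile normalization, and 2383 and 844 after median centring. Under both settings 4 of the 6 genes were called lower. The median log2 fold change was -0.59 over the 6 genes and -0.04 over all genes. The values of the knockdown and scramble arrays did not overlap for 5 of the 6 genes, lower for 4 and higher for 1. Among all genes they did not overlap for 62.6%, lower for 34.3% and higher for 28.3%. With each array left out in turn, the calls of Cideb, Plin4 and Plin5 depended on the array left out. Their log2 fold changes were then -0.90 to -0.57, -0.49 to -0.39 and -0.91 to -0.67. Fewer genes were also called over all genes in each of these fits.

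**Figure D1:**
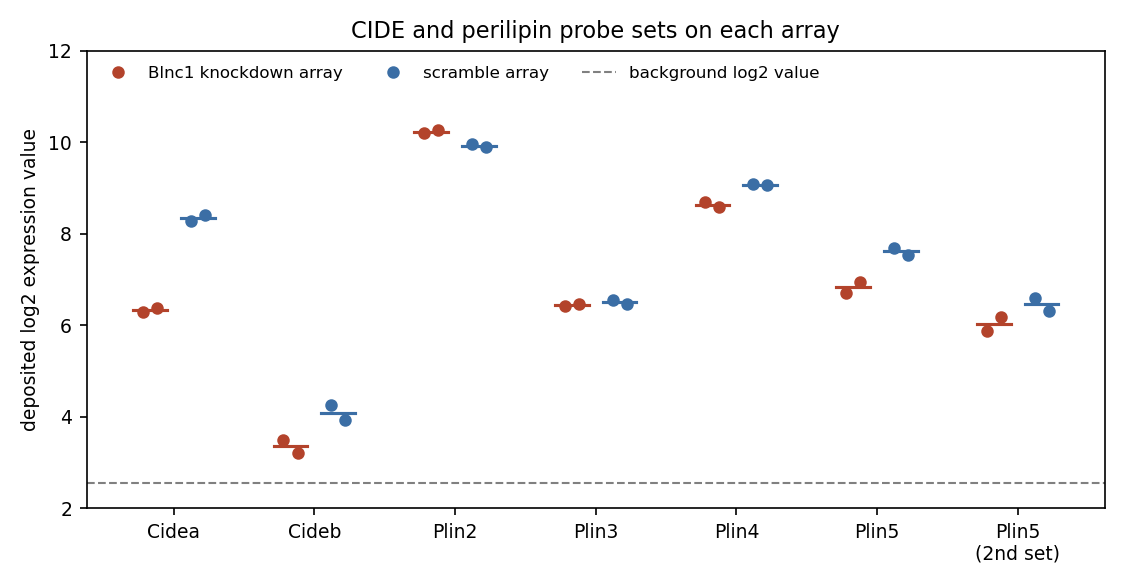
Deposited log2 expression value of each CIDE and perilipin probe set (vertical axis) on each array, with knockdown arrays left of scramble arrays, short bars at the group means and a dashed line at the background log2 value of 2.55. The Cidea values of the knockdown arrays lie near 6.3 and those of the scramble arrays near 8.3, while the Plin3 values of both groups overlap. Levels of different probe sets are not comparable with each other.

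Among the CIDE genes, Cidea had the larger change. It read 6.29 and 6.37 on the knockdown arrays, against 8.28 and 8.40 on the scramble arrays (log2). The gap between the groups was 1.91 log2 units, and arrays of 1 group differed by 0.08 (knockdown) and 0.12 (scramble). Cidea was 4.02-fold lower, a log2 fold change of -2.01 with a standard error of 0.10 and a 95% interval of -2.25 to -1.76 (limma adjusted p = 0.000291). This was the 9th largest fall of the 17097 genes. Cidea was called lower with any of the 4 arrays left out, with adjusted p-values of 0.000547 to 0.00305.

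Cideb also fell, from a probe set nearer to background. It read 3.49 and 3.21 on the knockdown arrays and 4.25 and 3.92 on the scramble arrays, where 2.55 is the background log2 value, so all 4 values were above background. The group means were 3.35 ± 0.20 in knockdown and 4.08 ± 0.23 in scramble (SD, n = 2 each). Cideb was 1.66-fold lower (log2 fold change -0.73, 95% interval -1.09 to -0.37, limma adjusted p = 0.0196). The adjusted p was 0.0503 without scramble replicate 1 and 0.119 without knockdown replicate 2. The name of its probe set, marks a design that may bind transcripts of several genes or forms. The hepatocyte genes that were lower on the same arrays included Apoa1, an apolipoprotein gene, with 3.71 and 3.67 in knockdown, against 4.95 and 5.04 in scramble. The part of liver transcripts in the Cideb values was not tested.

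Dffa and Dffb encode the DNA fragmentation factor subunits, which share the amino-terminal CIDE-N domain with the CIDE proteins. Neither passed the test. Dffa averaged 4.57 in knockdown and 4.92 in scramble (limma adjusted p = 0.0663), and Dffb averaged 2.24 and 2.34, both at background.

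Among the 4 measured perilipins, Plin5 had the largest change. Its brighter probe set, which may bind transcripts of several genes or forms by its name, read 6.70 and 6.95 on the knockdown arrays, against 7.69 and 7.53 on the scramble arrays. The groups were 0.59 log2 units apart, and the arrays within a group differed by 0.24 (knockdown) and 0.16 (scramble). Plin5 was 1.73-fold lower (log2 fold change -0.79, 95% interval -1.08 to -0.49, limma adjusted p = 0.00729). Without knockdown replicate 1 the adjusted p was 0.0516.

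The second probe set of Plin5 read 5.87 and 6.18 on the knockdown arrays and 6.60 and 6.32 on the scramble arrays. Its groups did not overlap either, but they were only 0.14 apart, less than the 0.31 between the knockdown arrays. Its log2 fold change was -0.44 (95% interval -0.79 to -0.09), with a limma adjusted p of 0.1 over all probe sets, so it did not pass. The size of the Plin5 fall therefore depended on the probe set. The mean of both probe sets gave -0.61 (limma adjusted p = 0.0242).

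Plin4 was lower by a smaller amount, with close replicates. It read 8.68 and 8.59 on the knockdown arrays, against 9.09 and 9.06 on the scramble arrays. The knockdown arrays were both below the scramble arrays by at least 0.38 log2 units. Plin4 was 1.36-fold lower (log2 fold change -0.44, 95% interval -0.68 to -0.20, limma adjusted p = 0.0261). The call was lost without scramble replicate 1 (adjusted p = 0.0598), without knockdown replicate 1 (0.102) and without knockdown replicate 2 (0.175).

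Plin2 lay on the other side of 0. It read 10.20 and 10.26 on the knockdown arrays and 9.96 and 9.89 on the scramble arrays, with both knockdown values above both scramble values. The log2 fold change was 0.30 (95% interval 0.07 to 0.54), and it did not pass over all genes (limma adjusted p = 0.0805). It passed after centring each array on its median (log2 fold change 0.37, adjusted p = 0.0453) and with a variance prior that follows the mean level (adjusted p = 0.000434), where its standard error was 0.05 in place of 0.10.

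Plin3, the cytosolic perilipin, showed no detectable change. It read 6.41 and 6.47 on the knockdown arrays, against 6.55 and 6.46 on the scramble arrays, so the groups overlapped. The log2 fold change was -0.06 with a 95% interval of -0.31 to 0.18 (limma adjusted p = 0.71), and it was 0.0014 after median centring. The interval does not reach the point estimate of Plin4, -0.44, or that of Plin2, 0.30. It overlaps the 95% intervals of both, -0.68 to -0.20 for Plin4 and 0.07 to 0.54 for Plin2.

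**Figure D2:**
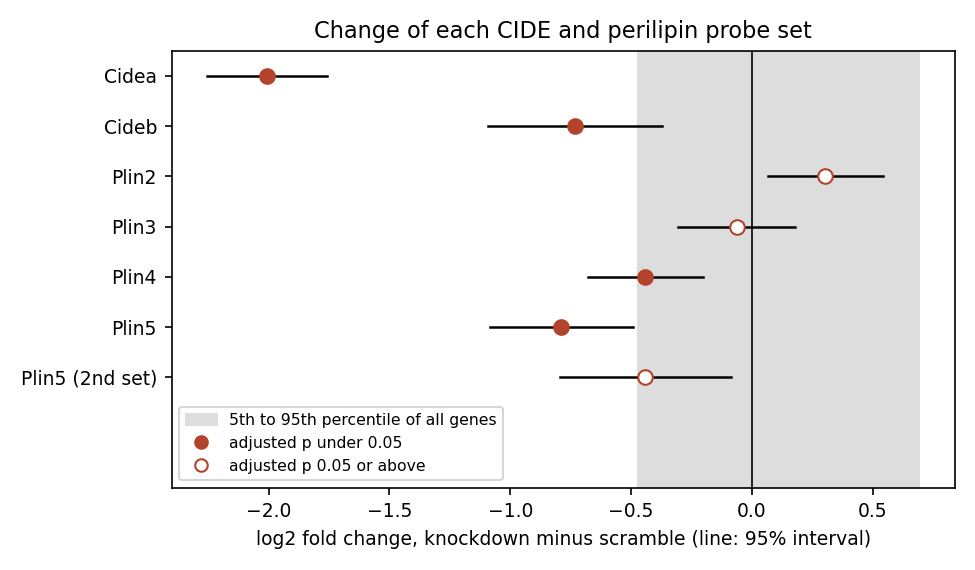
Log2 fold change (knockdown minus scramble, horizontal axis) of each CIDE and perilipin probe set, with 95% intervals as lines and filled points for an adjusted p under 0.05. The grey band runs from -0.47 to 0.69, the 5th and 95th percentiles of all genes. By brightest probe set, Cidea at -2.01, Plin5 at -0.79 and Cideb at -0.73 lie left of the band, and the other 3 genes lie inside it. The second probe set of Plin5, at -0.44, lies inside it too.

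Whether members changed unequally was asked within arrays, where the log2 value of 1 gene minus that of another cancels what an array shares. Of 15 pairs of the 6 genes, 14 had knockdown and scramble differences that did not overlap, as was so for 64.0% of all pairs of the 17097 genes. With 2 arrays a group the smallest two-sided p of the exact permutation test is 0.333, so no pair could pass 0.05, and the adjusted value over the 15 pairs was 0.357 for each of the 14. The change of Cidea was below that of Cideb by 1.28 log2 units, a 2.42-fold unequal change. The knockdown values of Cideb, 3.49 and 3.21, lay nearer to the background of 2.55 than those of Cidea. The part of this in the unequal change was not tested. The change of Plin5 was below that of Plin2 by 1.09 log2 units, since Plin2 minus Plin5 was 3.49 and 3.31 on the knockdown arrays, against 2.27 and 2.35 on the scramble arrays. Plin4 and Plin5 differed by 0.35, with Plin4 minus Plin5 at 1.98 and 1.64 in knockdown and 1.40 and 1.53 in scramble. Cideb and Plin5 were the pair that overlapped, and their changes differed by 0.06 (exact permutation p = 1).

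Plin4 and Plin5 are neighbours on chromosome 17, and Plin3 lies further along the same stretch. The RefSeq gene table (GRCm38.p6, used here for gene order) lists 10 protein-coding genes from Plin4 to Plin3, all measured, of which 4 were lower and 1 was higher in knockdown, with Plin4 and Plin5 among the 4. Of all genes, 7.18% were lower and 11.4% higher. The 4 lower genes stand side by side as Plin4, Plin5, Lrg1 and Sema6b, an arrangement chosen for description after the values were seen. Lrg1, which encodes a secreted leucine-rich glycoprotein, read 7.61 and 7.57 on the knockdown arrays, against 8.47 and 8.29 on the scramble arrays (log2 fold change -0.79, limma adjusted p = 0.00459). Sema6b, a semaphorin gene, averaged 2.98 in knockdown and 3.65 in scramble (log2 fold change -0.67, adjusted p = 0.0295). These values are close to the background of 2.55, and its scramble arrays read 3.42 and 3.89. Dpp9, a dipeptidyl peptidase gene between Sema6b and Plin3, was higher (log2 fold change 0.44, adjusted p = 0.0371), a call lost after quantile normalization (0.35, adjusted p = 0.0725). Sema6b and Dpp9 were each called in 1 of the 4 fits that left out an array, and Lrg1 in all 4.

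**Figure D3:**
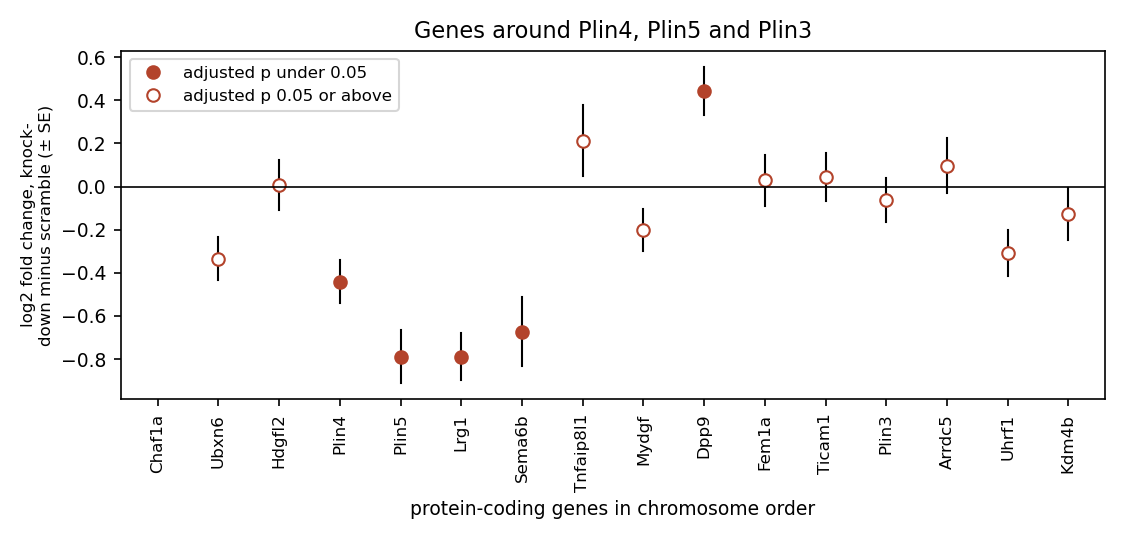
Log2 fold change (knockdown minus scramble, vertical axis, lines ± SE) of the protein-coding genes from Plin4 to Plin3 and 3 on either side, in chromosome order, with filled points for an adjusted p under 0.05. Plin4, Plin5, Lrg1 and Sema6b lie between -0.44 and -0.79, while Plin3 lies at -0.06. Chaf1a has no value here.

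Most other genes of the lipid droplet were not called. Of 34 listed genes that build droplets, sit on them or handle their lipid, 32 were measured, with 4 higher, 3 lower and 25 not called. These shares, 12.5% higher and 9.38% lower, were near the 11.4% and 7.18% of all genes. Their median log2 fold change was -0.05, against -0.04 for all genes. The higher genes were G0s2, which encodes an inhibitor of the triglyceride lipase ATGL, Dgat2, which makes triglyceride, Spart (listed as Spg20), whose product reaches droplets and helps their turnover, and Acsl3, an acyl-CoA synthetase of new droplets. The lower genes were Rab8a, a small GTPase that acts in droplet fusion, Pnpla2, which encodes ATGL itself, and Hilpda, which encodes another ATGL inhibitor.

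G0s2 read 10.39 and 10.41 on the knockdown arrays, against 9.77 and 9.79 on the scramble arrays, and was 1.54-fold higher (limma adjusted p = 0.00731). Dgat2 read 8.85 and 8.83, against 8.24 and 8.21, and was 1.53-fold higher (adjusted p = 0.0074), with 0.71 log2 units from its other probe set. In the brightest probe set of each gene, the groups lay apart by many times the difference between replicates. With 2 arrays a group that difference is itself imprecise, and the limma standard error of both changes was 0.098. The other Dgat2 probe set read 6.37 and 6.28 in knockdown, against 5.74 and 5.48 in scramble, with replicates further apart. Pnpla2 read 2.99 and 2.88 in knockdown and 3.47 and 3.35 in scramble, values close to the background of 2.55 (log2 fold change -0.47, adjusted p = 0.0255). Rab8a and Hilpda had log2 fold changes of -0.47 and -0.43 (adjusted p = 0.0242 and 0.0284), and Spart and Acsl3 had 0.49 and 0.42 (adjusted p = 0.0179 and 0.0333). The Acsl3 probe set used has a name of the same kind as those of Cideb and Plin5. Acsl3 has 2 further probe sets, of which one read 5.22 in knockdown and 4.65 in scramble on average (log2 fold change 0.57) and the other, at background, had -0.31. The Acsl3 call was lost with the mean of its probe sets (0.22, adjusted p = 0.139) and after quantile normalization (0.29, adjusted p = 0.111), which also ended that of Spart, listed as Spg20 (0.34, adjusted p = 0.0573). In the fits without knockdown replicate 1 and without knockdown replicate 2, 0 of the 32 genes were called by limma in either direction. At an unadjusted p of 0.05, 5 were higher and 4 lower without knockdown replicate 1, and 6 were higher and 4 lower without knockdown replicate 2. Over all genes the shares at that p were 13.5% higher and 10.5% lower without knockdown replicate 1, and 12.9% and 9.39% without knockdown replicate 2.

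**Figure D4:**
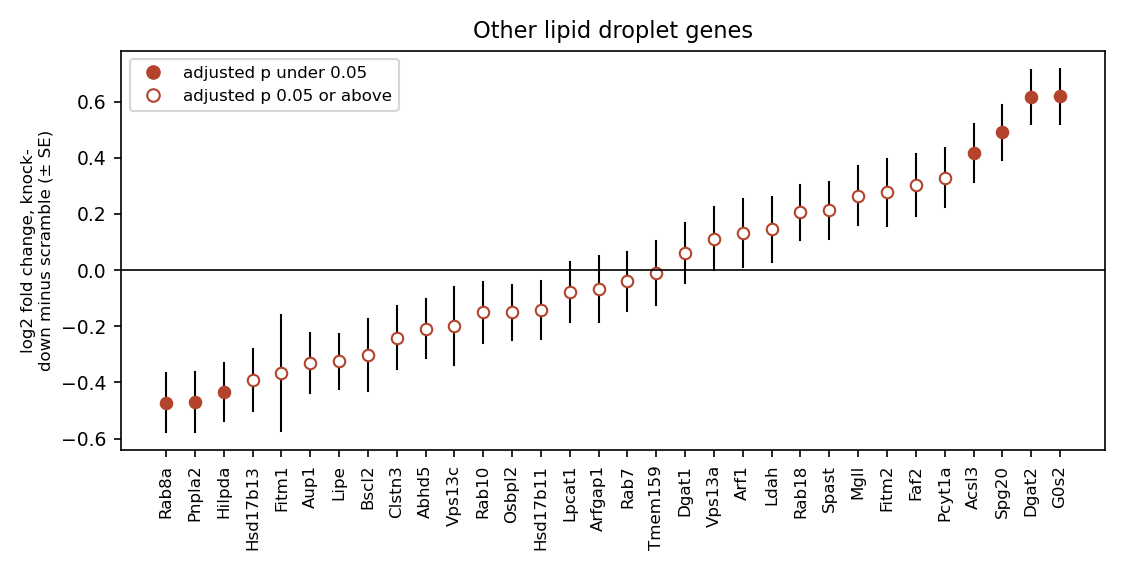
Log2 fold change (knockdown minus scramble, vertical axis, lines ± SE) of 32 other lipid droplet genes in order of size, with filled points for an adjusted p under 0.05. The changes run from -0.47 for Rab8a to 0.62 for G0s2, a narrower span than that between Cidea and Plin2. The measured coat genes other than Cidea run from -0.79 for Plin5 to 0.30 for Plin2, a similar span.

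The genes whose 4 array values lay nearest to those of a member were found among 11906 genes with both groups above background, as the root mean square distance over the 4 arrays after each gene was centred on its own mean. The 5 nearest to Cidea were Ano1, Orly, Pdk4, Ppara and Angptl4, at distances of 0.09 to 0.13 log2 units. Pdk4, which encodes a kinase that inhibits pyruvate dehydrogenase, read 7.55 and 7.65 on the knockdown arrays, against 9.36 and 9.46 on the scramble arrays. Ppara, a nuclear receptor gene of fatty acid oxidation, read 4.41 and 4.28, against 6.22 and 6.18. Angptl4, whose product inhibits lipoprotein lipase, read 7.75 and 7.51, against 9.56 and 9.55. Ano1, Orly, Pdk4, Ppara and Angptl4 were 4.53, 4.44, 3.52, 3.61 and 3.81-fold lower, beside 4.02-fold for Cidea. Averaging a gene's probe sets shrank the log2 fold changes of Ano1 to -1.65 (brightest probe set -2.18) and of Orly to -0.99 (brightest -2.15). It also shrank those of Ppara to -1.04 (brightest -1.85) and of Angptl4 to -1.30 (brightest -1.93).

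The 5 genes nearest to Plin5 were Firre, Phyh, Chchd4, Zfp655 and Babam2, at distances of 0.03 to 0.05 log2 units. Phyh, a peroxisomal enzyme gene of branched fatty acid breakdown, read 7.42 and 7.56 on the knockdown arrays and 8.36 and 8.26 on the scramble arrays. Chchd4, which encodes a mitochondrial import factor, read 6.62 and 6.75, against 7.53 and 7.32. Firre averaged 3.12 in knockdown and 3.85 in scramble, where background is 2.55. Averaging a gene's probe sets shrank the log2 fold change of Firre to -0.34 (brightest probe set -0.73). That of Babam2 became -0.83 (brightest -0.77). The nearness of Firre to Plin5 therefore holds for its brightest probe set only. With 4 arrays in 2 groups, this distance holds both the group difference and the order of arrays within a group, so neither is a further likeness.

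**Figure D5:**
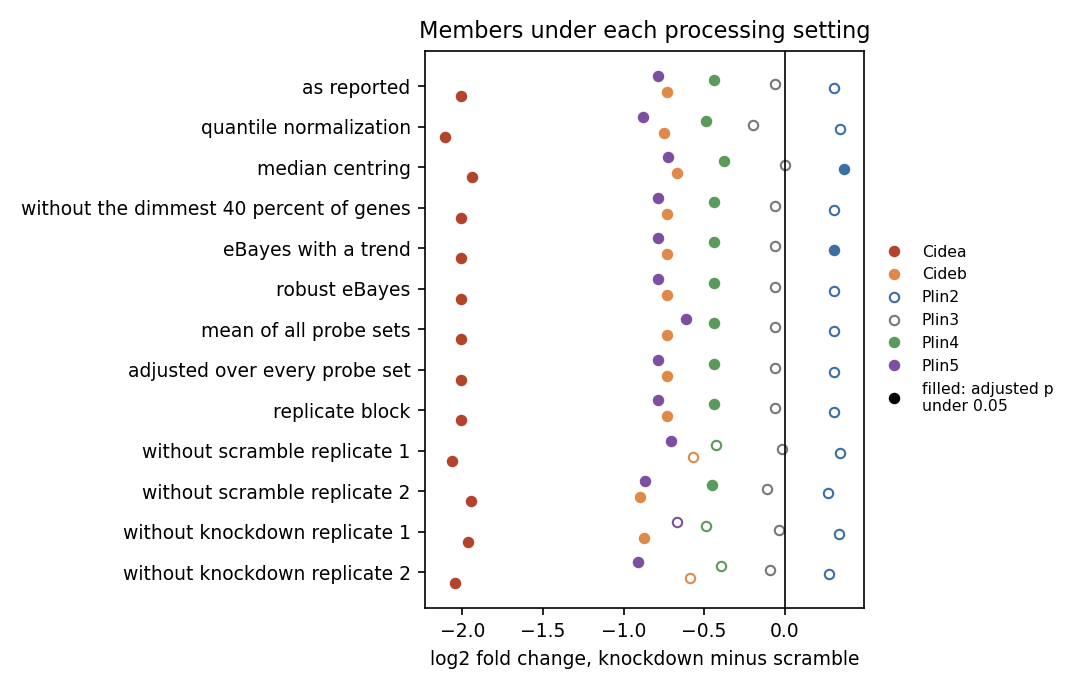
Log2 fold change (knockdown minus scramble, horizontal axis) of the 6 measured genes under each processing setting (rows), with filled points for an adjusted p under 0.05. Cidea lies between -2.11 and -1.94 and is filled in every row, Plin3 is open in every row, and Plin2 is filled in 2 rows.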

How the data were processed

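Labelled RNA from 2 Blnc1 knockdown and 2 scramble samples, made from 250 ng of total RNA each, was put on Affymetrix mouse PM strip arrays, per the labels' protocols. The values are log2 expression values deposited by the authors, 1 per probe set and array, and per the submitters' processing notes the tools were affy, RMA and limma, with no version given. The log2 scale was read from the values, which run from 1.05 to 12.36. Scanner files were not used here. Depth does not apply to arrays, and their number limits the precision.

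The 104 control probe sets were left out. Platform annotation names 28898 of the other 45037 with 1 symbol, 551 with several and 15588 with none, and gave 17097 genes, each by its brightest probe set. Background was set at 2.55 (log2), the top reading among the nonspecific control probes that hold 3 to 24 G or C bases. Tests used R 4.3.3 and limma 3.58.1 (lmFit, eBayes) over every probe set, with no covariate, two-sided, and Benjamini-Hochberg adjustment over genes and a threshold of 0.05. There were 2 residual and 4.93 prior degrees of freedom. The fit was tested on simulated data. The labels call the samples biological replicates but do not say how cultures were separated, so p-values measure the spread between these samples.

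The members, the lists, the rule for named genes and the alternatives were chosen with earlier results of these data known. The rule names all members, up to 10 called droplet genes with the largest change, and the 5 genes nearest to Cidea and to Plin5. Neighbouring genes were added after the values were seen. Ldaf1 and Spart were matched through their older symbols Tmem159 and Spg20. The alternatives were quantile normalization, median centring, a filter on the dimmest 40 percent of genes, a trended or a robust variance prior, the average of a gene's probe sets, adjustment over every probe set, the replicate number as a block and leaving out each array in turn. A group left with 1 array took its spread from the other group.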

Additional observations from a re-analysis of the deposited data

How the results depend on the processing

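Cidea was called lower in knockdown under all 12 alternatives run, with log2 fold changes of -2.11 to -1.94. Leaving out each array in turn gave log2 fold changes of -0.90 to -0.57 for Cideb, -0.49 to -0.39 for Plin4, -0.91 to -0.67 for Plin5, 0.27 to 0.34 for Plin2 and -0.11 to -0.01 for Plin3. It gave 2 to 4 members called lower and 0 higher, 0 to 4 other droplet genes higher and 0 to 3 lower, and 795 to 1681 genes higher and 255 to 1168 lower in all, in place of 1941 and 1228. Fewer samples enter these fits. Plin2 was called higher after median centring (0.37) and with an eBayes trend (0.30), which made 1 member higher in place of 0. Plin3 had 0.0014 after median centring in place of -0.06. The second probe set of Plin5, added after its values were seen, gave -0.44. The difference of the changes of Cideb and Plin5, 0.06, was -0.12 with the mean of all probe sets, and 0.32 to -0.21 with an array left out (-0.03 without scramble replicate 2 and -0.21 without knockdown replicate 1). Quantile normalization gave 2 other droplet genes higher and 5 lower, in place of 4 and 3, and the eBayes trend gave 8 and 7; the cause was not tested. Among all genes, 1514 were higher and 1564 lower after quantile normalization, 2383 and 844 after median centring, and 2570 and 1800 with the trend.

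The replicate numbers are shared by both groups in name, and deviations of same-numbered arrays correlated at 0.01 across probe sets. This correlation rests on 2 arrays a group, so it cannot decide whether same-numbered arrays share a culture or batch. With the replicate block, 1953 genes were higher and 1226 lower, and the same number of members, 4, was called lower. With 2 arrays a group, precision is limited for all these values.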
